A study of Homo sapiens with 15 samples.

Results

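LY500307, a synthetic agonist of estrogen receptor β (ERβ), was compared with its vehicle in KPL4 cells that carried reintroduced ERβ. KPL4 is a human breast adenocarcinoma line with an amplified HER2 (ERBB2) gene. The members were 6 of the 15 total RNA libraries of the series, 3 from LY500307-treated and 3 from vehicle-treated cells, chosen by their labels. Both groups were the add-back line: cells in which endogenous ERβ had been knocked out and into which exogenous ERβ was then transfected. Both had been deprived of hormone for 72 h, in medium lacking phenol red and containing 1% charcoal-stripped serum, and then received either 200 nM LY500307 or DMSO for 24 h in that medium. The other 9 libraries were untreated control (endogenous ERβ), knockout and add-back cells, 3 each, grown with 7% serum, insulin and hydrocortisone. The promoter that drives exogenous ERβ, and whether the knockout or add-back line is a single clone, were not given in the sources used here. The labels do not say that replicates were separate cultures, so p-values measure the spread between these libraries, which may be technical.

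ERβ, encoded by ESR2, is a nuclear receptor that acts as a ligand-dependent transcription factor. On binding an agonist it recruits coactivators to estrogen response elements, inverted repeats with the consensus GGTCANNNTGACC, or to sites held by other factors such as AP-1. ERα, encoded by ESR1, recognises the same elements, and the classical estrogen-induced genes of breast cells (TFF1, GREB1, CA12, IGFBP4) were mostly described through it. Charcoal treatment removes steroid hormones from serum, and phenol red is left out because it is weakly estrogenic.

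Values are counts scaled to a common library size (CPM) after TMM normalisation, where 1 CPM stood for 14.7 to 18.7 counts in these libraries. Totals ran from 15046862 to 19390378 expected counts in vehicle and from 16843036 to 18100010 in LY500307 libraries. Read-outs are from bulk RNA, in which fewer cells of a type and less RNA per cell cannot be told apart. The label was checked against 8 markers of HER2-amplified mammary epithelium, all of which were measured, with a summed level of 10800 to 11570 CPM in vehicle and 11280 to 11800 CPM in LY500307 libraries; CDH1 (E-cadherin) was low, at 14.2 to 16.0 CPM. Of 20 markers of other cell types, 13 stayed under 1 CPM in every library and LUM and HBB had no count. Their sum was 113 to 121 CPM in vehicle and 101 to 107 CPM with LY500307, most of it from KDR and MITF.

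ESR2 was at the same level in both groups within their spread. It stood at 41.7, 45.9 and 48.0 CPM in the vehicle libraries and at 45.0, 44.2 and 42.4 CPM in the LY500307 libraries (log2 fold change −0.04, SE 0.08, edgeR adjusted p = 0.815). The ranges overlapped, and all 6 libraries lay far above the knockout mean of 4.41 CPM (SD 1.36, n = 3). They also lay far above the mean of control cells, with endogenous ERβ, which was 5.76 CPM (SD 0.867, n = 3). ESR2 (chr14:64084232-64338112, minus strand) lies across SYNE2 of the other strand (190 CPM in vehicle), and whether the counting used strand is not given in the sources used here. ESR1 was at 10.7 ± 0.143 CPM in vehicle and 10.4 ± 0.191 CPM with LY500307 (SD, n = 3, edgeR adjusted p = 0.825). No knockout or control cells received LY500307, so whether the changes below depended on ERβ or on ERα was not tested.

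LY500307 raised a set of classical estrogen-induced genes by several fold, and no fall of comparable size was called in a protein-coding gene that held after the correction described next. A gene was called at an adjusted p under 0.05 in edgeR's quasi-likelihood test, with Benjamini-Hochberg adjustment over 19516 genes. By this rule 1389 genes (7.12%) differed between LY500307 and vehicle, 931 higher (4.77%) and 458 lower (2.35%). The same test was then refitted after removing, from each library, a smooth trend of its expression deviations on gene GC content and transcript length. With these offsets 271 genes were called (1.39%), and 216 genes (1.11% of those tested, 15.6% of the first calls) were called in the same direction in both fits. These 216 are referred to here as held changes: 147 were higher with LY500307 (0.753% of genes tested) and 69 were lower (0.354%). All 216 had no overlap between the 3 LY500307 and 3 vehicle libraries, as did 26.1% of all genes tested.

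The larger changes were mostly rises. Of first calls of at least 2-fold, 28 were higher and 8 lower, and 17 of the rises and 1 of the falls were held. At 1.5-fold or more the held changes were 43 rises and 3 falls. These fold limits were applied to changes without the offsets. The median held rise was 0.40 on the log2 scale and the median held fall was −0.29. With the offsets these medians were 0.30 and −0.25. Held genes were mostly protein-coding, 199 of 216.

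The correction mattered because the libraries differed along GC content. In the decile of genes with the highest GC content, the median log2 fold change was 0.27, with 509 genes called higher and 0 lower. In the decile with the lowest GC content it was −0.10, with 4 genes called higher and 110 lower. After the offsets these medians were −0.0061 and 0.0006. The trend did not follow the treatment alone: relative to the mean of the 6 libraries, genes of the top decile lay at −0.163 and −0.215 in vehicle replicates 1 and 2, at 0.00227 in vehicle replicate 3, and at 0.139, 0.158 and 0.0959 in the LY500307 libraries. Vehicle replicate 3 thus lay between the other vehicle libraries and the LY500307 libraries. Offsets for GC content alone left 267 calls, and offsets for length alone left 1319. A true effect of the ligand on GC-rich genes as a class and this library difference cannot be told apart here.

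**Figure D1:**
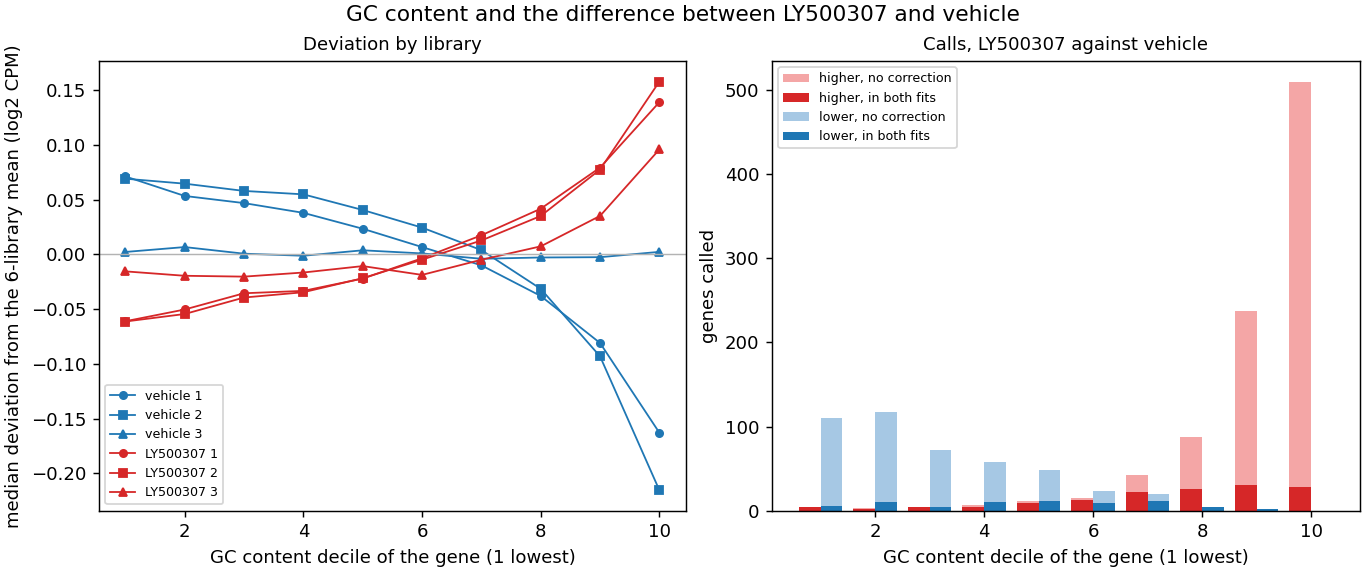
Left, median deviation of each library's log2 CPM from the mean of the 6 libraries in deciles of genes ordered by GC content; right, genes called per decile, in pale colours without and in full colours with the further requirement of a call after the GC and length offsets. Vehicle replicate 3 is flat while vehicle replicates 1 and 2 fall to −0.163 and −0.215 in the top decile, where 509 genes were called higher before and 28 in both fits.

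**Figure D2:**
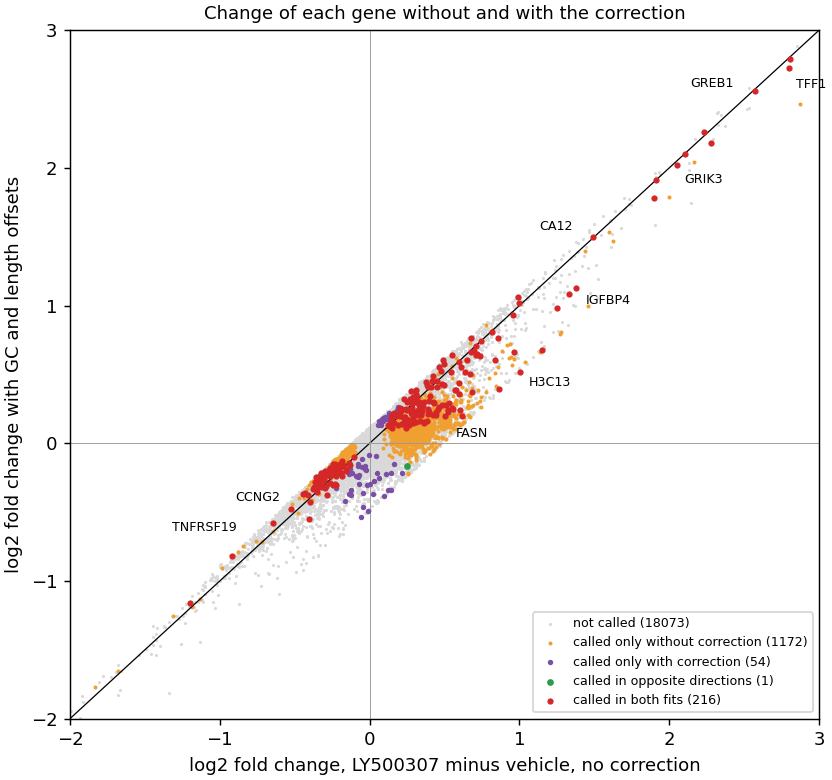
Log2 fold change of each tested gene without (horizontal) and with (vertical) the GC and length offsets, coloured by call, with the diagonal marking equal values; genes beyond the axis limits are not drawn. GREB1, CA12 and TNFRSF19 lie near the diagonal, whereas FASN lies close to 0 on the vertical axis.

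Estrogen-responsive genes were the group with the most held changes. Of 50 listed genes 42 could be tested, and 20 were called higher and 0 lower (47.6% of the list, against 7.12% of all genes). Of these, 17 were held (40.5% of the list, against 1.11% of all genes). The median log2 fold change of the 42 was 0.26, and 0.22 with the offsets, against −0.02 and −0.0038 over all genes. The 8 untested members, PGR (progesterone receptor) among them, were below the filter on low counts. The list was composed with results of these data already known, so its count is a description.

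The promoter stretches of 3 strongly raised genes, picked because they hold a match, are shown with the letters that match a known element. Such elements close to the start are where receptor or STAT sites are commonly sought. GRIK3 and IGFBP4, also strongly raised, had no match to an estrogen or STAT element in the 250 bases before the start. The stretch before the earlier start of C5AR2 had no estrogen match. No promoter sequence was available for TFF1 or GREB1. The stretches shown are taken from RefSeq (GRCh38.p14), are written 5′ to 3′ on the strand of the gene, and have the matching letters in capitals. C5AR2 (chr19:47336845-47337094, plus strand, before the later of its annotated starts) has GGTCANNNTGAC, the consensus element less its last base; CA12 (chr15:63382026-63382054, minus strand, overlapping an annotated CA12 exon) has GGTCA, a single arm of the element; CISH (chr3:50611992-50612019, minus strand, within an exon of MAPKAPK3 on the other strand) has 2 of the 4 copies of TTCNNNGAA, the element bound by STAT factors, found in its window.
C5AR2: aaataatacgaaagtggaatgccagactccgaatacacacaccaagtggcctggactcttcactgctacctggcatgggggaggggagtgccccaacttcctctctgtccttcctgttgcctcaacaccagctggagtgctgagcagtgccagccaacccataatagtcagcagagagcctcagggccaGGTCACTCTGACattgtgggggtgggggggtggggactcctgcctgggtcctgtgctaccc
CA12: actgtgttcctgGGTCAgccctggcccag
CISH: cgttTTCCTGGAAagTTCTTGGAAatct

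Matches were sought on both strands in the 250 bases before each annotated start, and windows were found for 99 held rises, 51 held falls and 12206 of all genes tested. The full element GGTCANNNTGACC was in no window of a held gene and in 0.0328% of genes. The form lacking its last base was in C5AR2 alone among held genes and in 0.148% of all genes. The single arm GGTCA, which every copy of the longer forms also contains, was in 33.3% of held rises, 31.4% of held falls and 37.4% of all genes. TGANTCA, the AP-1 element, was in 9.09%, 11.8% and 6.31%, and TTCNNNGAA was in 8.08%, 3.92% and 7.49% of the same groups. GGGCGG, the GC box bound by SP1, was in 73.7%, 74.5% and 70.9%. These are letter matches in short windows and say nothing of receptor binding or of distal elements.

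TFF1 (trefoil factor 1, a secreted mucosal peptide and a standard estrogen target; chr21:42362282-42366594) had the largest rise among held protein-coding genes averaging at least 1 log2 CPM. It was at 0.718, 0.641 and 0.341 CPM in vehicle and at 4.13, 4.23 and 3.76 CPM with LY500307. The rise was 2.80 on the log2 scale (SE 0.27, edgeR adjusted p = 4.65e-06), at a low level. GREB1 (growth regulating estrogen receptor binding 1, a receptor cofactor induced by estrogen; chr2:11482341-11642788) was at 3.33, 3.63 and 4.09 CPM in vehicle and at 21.8, 21.3 and 22.7 CPM with LY500307. The groups did not overlap for either gene, and the log2 fold change of GREB1 was 2.57 (SE 0.14, edgeR adjusted p = 2.97e-09). The increase of GREB1 was seen in more than a single annotated transcript: GREB1-201 went from 0.523 ± 0.902 to 10.3 ± 2.38 CPM and the shorter GREB1-206 from 1.97 ± 0.554 to 5.41 ± 0.626 CPM (SD, n = 3). These transcript values are the authors' deposited estimates scaled to CPM, and reads shared between transcripts were divided by a model.

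CA12 (carbonic anhydrase 12, a membrane enzyme that hydrates carbon dioxide; chr15:63321378-63382161) had the smallest p of all genes tested in the estrogen list. It was at 44.4, 44.3 and 44.9 CPM in vehicle and at 118, 131 and 127 CPM with LY500307. The groups were far apart relative to their spread (log2 fold change 1.49, SE 0.06, edgeR adjusted p = 8.36e-12). Both main CA12 transcripts rose in parallel, CA12-201 from 26.1 ± 1.55 to 76.7 ± 1.85 CPM and CA12-202 from 14.04 ± 5.86 to 40.6 ± 9.62 CPM (SD, n = 3).

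IGFBP4 (a secreted binding protein that limits insulin-like growth factor action; chr17:40443461-40457731) was at 7.32, 8.76 and 8.72 CPM in vehicle and at 22.1, 20.4 and 22.3 CPM with LY500307, a log2 fold change of 1.38 (SE 0.10, edgeR adjusted p = 1.1e-07). It is GC-rich, and its change was 1.13 after the offsets. SYTL5 (a synaptotagmin-like protein of vesicle trafficking; chrX:38006582-38128819) rose from 6.27, 6.41 and 6.34 CPM to 13.1, 12.9 and 11.9 CPM. Its log2 fold change was 0.99, and 1.06 after the offsets.

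The other held estrogen-responsive genes changed less. RAPGEFL1 (a guanine nucleotide exchange factor-like protein) rose from 22.9 ± 1.05 to 37.5 ± 1.65 CPM, TFF3 (trefoil factor 3) from 2.67 to 4.81 CPM, and SLC7A5 (the leucine transporter LAT1) from 321 ± 26.2 to 485 ± 13.1 CPM (SD, n = 3). RARA (retinoic acid receptor α) and P2RY2 (a purinergic receptor) had log2 fold changes of 0.60 and 0.57. KRT19 (keratin 19), NHERF1 (a scaffold of membrane transporters), TPD52L1, MYBL1, STC2 (stanniocalcin 2), XBP1 and CCND1 (cyclin D1) were held at 0.13 to 0.38. CCND1 was at 612, 596 and 582 CPM in vehicle and at 651 CPM in each treated library. KRT19 was at the edge, since its change went from 0.38 to 0.16 with the offsets (edgeR adjusted p = 0.0437). Calls for CTSD (cathepsin D), RET and HSPB8 were not held, with 0.05, 0.60 and 0.41 after the offsets; RET had an edgeR adjusted p of 0.0801. Other classical targets did not pass the test in either fit, including AREG (amphiregulin) at 0.31, PDZK1 at 0.58, BCL2 at 0.26, MYB at −0.05 and NRIP1 at −0.01.

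**Figure D3:**
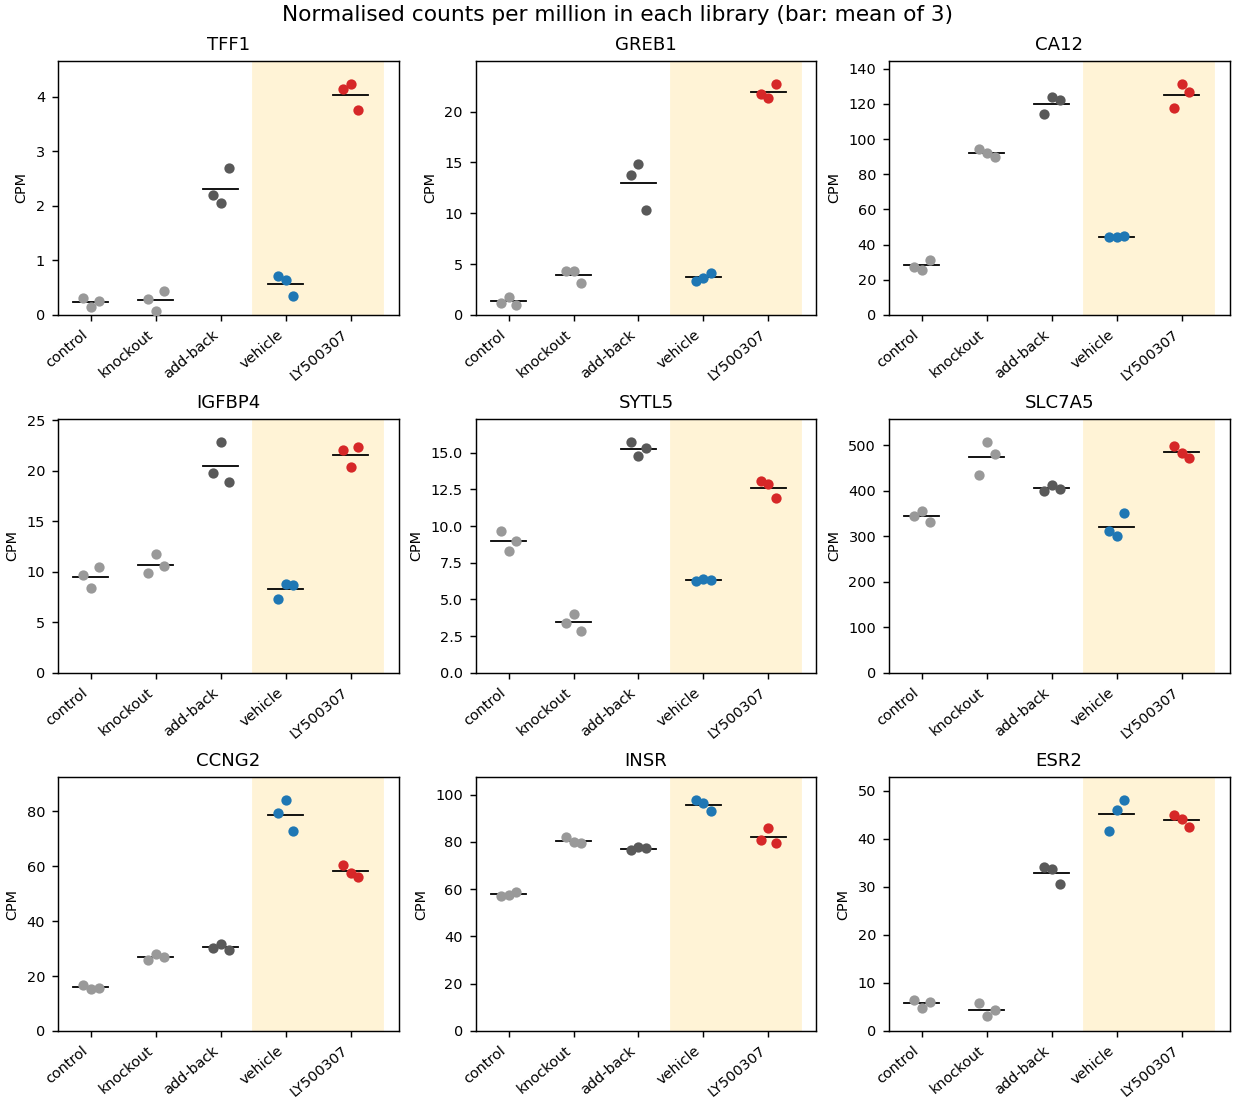
CPM in each of the 15 libraries for 9 genes, with the mean of each group as a bar and the vehicle and LY500307 libraries on the shaded ground; each panel starts at 0. For TFF1, GREB1, CA12, IGFBP4, SYTL5 and SLC7A5 the treated libraries lie above the vehicle libraries, for CCNG2 and INSR they lie below, and for ESR2 they overlap.

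Outside that list, the largest held rises in protein-coding genes included several with low levels. GRIK3 (a kainate-type glutamate receptor subunit; chr1:36795527-37034129) was at 3.46, 3.52 and 3.61 CPM in vehicle and at 13.6, 14.6 and 15.8 CPM with LY500307 (log2 fold change 2.05, edgeR adjusted p = 1.1e-07). C5AR2 (a receptor for complement fragment C5a; chr19:47332147-47347327), whose promoter is printed above, was at 1.24, 1.01 and 0.749 CPM in vehicle and at 4.30, 3.81 and 3.29 CPM with LY500307. CISH (a cytokine-induced inhibitor of STAT signalling; chr3:50606490-50611831) went from 1.44, 1.49 and 1.23 CPM to 4.24, 5.74 and 5.69 CPM. None of these genes overlapped between groups. CISH shares its locus with MAPKAPK3 on the other strand, which was at 52.5 CPM in vehicle and was itself called at 0.22, so the share of its reads that is from CISH was not tested.

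A4GALT (a glycosyltransferase of globoside synthesis) rose from 2.06 ± 0.170 to 4.94 ± 0.287 CPM and MAB21L4 from 25.5 ± 0.698 to 49.6 ± 3.68 CPM (SD, n = 3). PPM1J, H3C13 and TRIM31 completed the 12 largest rises above that level at 1.33, 1.00 and 1.00. H3C13, a replication-dependent histone gene with a GC content of 67.4%, dropped to 0.52 with the offsets, and vehicle replicate 3, at 16.3 CPM, stood well above vehicle replicates 1 and 2, at 9.60 and 8.76 CPM. CYP2B7P, a transcribed cytochrome P450 pseudogene that can share reads with its near-identical relatives, was at 161, 156 and 166 CPM in vehicle and 265, 268 and 277 CPM with LY500307. LINC02568, a long noncoding RNA, was at 0.653, 0.694 and 1.02 CPM in vehicle and at 3.79, 3.93 and 3.40 CPM with LY500307 (log2 fold change 2.23, edgeR adjusted p = 4.11e-06). Unnamed loci ENSG00000278996 and ENSG00000263809 had no count in any vehicle library and means of 2.45 and 1.02 CPM with LY500307, so no fold is given for them. ENSG00000263809 overlaps RPL26 on the same strand (342.5 CPM in vehicle) and ENSG00000278996 overlaps ENSG00000280800 on the other (396 CPM), so their reads are uncertain.

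The held falls were small. TNFRSF19 (a tumour necrosis factor receptor family member) was at 8.75, 8.44 and 8.04 CPM in vehicle and at 5.21, 6.16 and 4.81 CPM with LY500307 (log2 fold change −0.64, edgeR adjusted p = 0.00529). CCNG2 (cyclin G2, an unconventional cyclin linked to cell-cycle arrest) was at 79.5, 84.1 and 72.9 CPM in vehicle and at 60.6, 57.5 and 56.3 CPM with LY500307 (−0.44, edgeR adjusted p = 5.42e-05). Both genes had no overlap between groups. MUC19 (a gel-forming mucin) fell by 0.52 on the log2 scale, and OTULINL, TMEM45B, KLK10 (a kallikrein protease), NCALD, GLDN, MCTP1, DNAJB4, CAPN13 and CEACAM1 (a cell adhesion molecule) had log2 fold changes of −0.43 to −0.35. KLK10 was the GC-rich exception among them: its value went from −0.40 to −0.55 with the offsets. Unnamed noncoding loci fell further, ENSG00000259661 by 1.20 and ENSG00000259185 by 0.92 on the log2 scale, from 2.32 and 4.72 CPM. They lie across MAN2A2 (27.4 CPM) and TMOD3 (194 CPM) of the other strand, so their reads are uncertain too.

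The largest calls that were not held were of mixed kinds. Among rises, ZNF628 went from 1.14 to 0.66, DOK7 from 1.04 to 0.59 and RNF223 from 0.95 to 0.57, at GC contents of 70.4%, 66.8% and 65.5%, whereas TBC1D3D, a member of a family of near-identical copies, kept 1.53 of 1.60 and missed the threshold at an edgeR adjusted p of 0.0507. Among falls, BLOC1S5-TXNDC5 (a read-through transcript that shares exons with its neighbours), ENSG00000274944, SCUBE2 and S100A4 hardly changed in size and missed the threshold at edgeR adjusted p-values of 0.0983, 0.0964, 0.102 and 0.0585. FAM83H was called in opposite directions, at 0.25 and then −0.16. Another 54 genes were called only with the offsets, 16 higher and 38 lower.

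Growth factor genes differed in their number of held changes, and the mitotic, S-phase and cyclin lists had 1 each. Of 13 tested genes of insulin-like growth factor and insulin signalling 4 were called and all 4 were held: IGFBP4 and IGFBP5 rose, and INSR (the insulin receptor) and IGFBP3 fell. Called and held genes were thus both 30.8% of that list, against 7.12% and 1.11% of all genes. IGFBP5 went from 32.6, 33.4 and 30.8 to 41.8, 43.7 and 43.3 CPM, and INSR from 97.6, 96.5 and 93.2 to 80.8, 85.8 and 79.6 CPM. Neither gene overlapped between groups. Among 14 ERBB receptors and ligands edgeR called no gene without the offsets, and DESeq2 and limma-voom each called 1 lower. At an unadjusted p under 0.05 in edgeR there were 3, against 4167 of all 19516 genes tested. ERBB2, at 5805 to 6328 CPM over the 6 libraries, had means of 6003 CPM in vehicle and 6194 CPM with LY500307. Without the offsets its log2 fold change was 0.05 (edgeR adjusted p = 0.406) and that of GRB7 was −0.08 (edgeR adjusted p = 0.227). With the offsets both were called lower, at −0.10 and −0.24, so these calls came only with the correction, and for ERBB2 the sign changed. Of 18 ERK feedback genes MYC (0.33) and CCND1 (0.13) were held higher. MYC was at 55.6, 56.6 and 61.5 CPM in vehicle and at 73.3, 74.4 and 70.8 CPM with LY500307. Among 30 mitotic genes 2 were called higher and 1 lower and PLK1 (0.22) was held; among 34 S-phase genes 5 were called higher and MCM2 (0.24) was held. CCND1 was the only call among 16 listed cyclins, CDKs and CDK inhibitors; CCNG2, which fell more (−0.44), is not on that list. The called shares were 22.2% for ERK feedback, 10.0% for mitotic, 14.7% for S-phase and 6.25% for cyclin and CDK genes, against 7.12% of all genes. In the same order the held shares were 11.1%, 3.33%, 2.94% and 6.25%, against 1.11% of all genes. Among 21 p53 targets and apoptosis regulators 1 was called (4.76%), and no call was held.

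Amino acid transport, secretory and inflammatory genes each had a few held rises. SLC3A2, the partner chain of SLC7A5, rose from 161 ± 4.18 to 188 ± 8.62 CPM (SD, n = 3), and these were the held calls among 22 ATF4 and amino acid genes. XBP1, a transcription factor of the unfolded protein response and a luminal mammary gene, was at 424, 433 and 417 CPM in vehicle and 500, 478 and 480 CPM with LY500307; SYVN1 (0.29) was the other held call among 24 genes of that response. All 3 calls among 14 NF-κB targets and cytokines were held: BIRC3 rose from 26.98 ± 1.06 to 39.5 ± 3.09 CPM, TNFAIP2 from 21.2 ± 2.84 to 33.8 ± 4.33 CPM and CXCL8 (interleukin 8) from 10.8 ± 0.864 to 15.2 ± 1.69 CPM (SD, n = 3). PFKFB3, which makes the activator of glycolytic phosphofructokinase, rose from 20.2 ± 0.685 to 31.8 ± 0.694 CPM and was the held call among 25 hypoxia and glycolysis genes. SCNN1A (a sodium channel subunit) and GLUL (glutamine synthetase) were held among 19 glucocorticoid receptor targets, at 0.31 and 0.15. Among 19 heat shock genes HSPA1A rose by 0.43 and DNAJB4 fell by 0.36 on the log2 scale. RARA and TLE3 (a corepressor, 0.34) were held among 26 nuclear receptors and coregulators, CCN1 (0.29) among 15 YAP-TEAD targets and KRT15 (0.33) among 11 basal genes. TGFBI (−0.29) was the held fall among 20 TGF-β and SMAD targets. Over these 10 lists the share called ran from 8.33% (unfolded protein response) to 36.8% (heat shock), against 7.12% of all genes. The share held ran from 4.0% (hypoxia and glycolysis) to 21.4% (NF-κB targets), against 1.11%, and rested on 1 to 3 genes a list.

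Several groups that were called often without the offsets lost most or all of their calls with them. Their called shares ran from 14.6% (cytosolic ribosomal protein genes) to 54.2% (histone genes), against 7.12% of all genes. Replication-dependent histone genes had 13 of 24 called higher and 3 held (H2BC5, H2BC9 and H3C10, at 0.55, 0.31 and 0.39), a held share of 12.5% against 1.11% of all genes. H3C13, H2BC7, H4C14 and H3C3, histone genes outside the list, were held higher too, at 1.00, 0.38, 0.36 and 0.28. None of these listed or unlisted histone genes kept the call in every repeat that left out 1 library. In vehicle replicates 1, 2 and 3 H2BC5 was at 46.6, 41.5 and 56.5 CPM and H3C10 at 85.4, 84.0 and 107 CPM. H2BC9 was at 69.8, 61.2 and 79.0 CPM in the same libraries. Aryl hydrocarbon and xenobiotic response genes had 7 of 17 called lower and GSTA4 (−0.33) held, 5.88% of the list. NRF2 and glutathione genes had 3 called higher and 4 lower of 20, cholesterol synthesis genes 1 higher and 4 lower of 24, fatty acid synthesis genes 2 higher and 1 lower of 17, cytosolic ribosomal protein genes 7 higher of 48 and epithelial junction genes 5 higher of 27, with 0 held in each of these 5 lists. FASN (fatty acid synthase) shows the pattern of vehicle replicate 3: it was at 1107, 974 and 1398 CPM in vehicle and at 1654, 1696 and 1619 CPM with LY500307, and its log2 fold change went from 0.51 to 0.16 with the offsets (edgeR adjusted p = 0.0721). Wnt pathway genes, cystatins and mitochondrially encoded mRNAs had no edgeR call in either fit. At an unadjusted p under 0.05 they had 3, 1 and 1 of 15, 4 and 13 genes. Over all genes tested 4167 of 19516 were under that limit. DESeq2 and limma-voom each called 1 Wnt gene. Of 38 lists 22 had a held gene and 16 had 0. In the list of other cell types KDR (VEGF receptor 2) fell from 41.9 ± 0.623 to 33.3 ± 0.724 CPM (SD, n = 3) and the other 6 tested genes were not called.

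**Figure D4:**
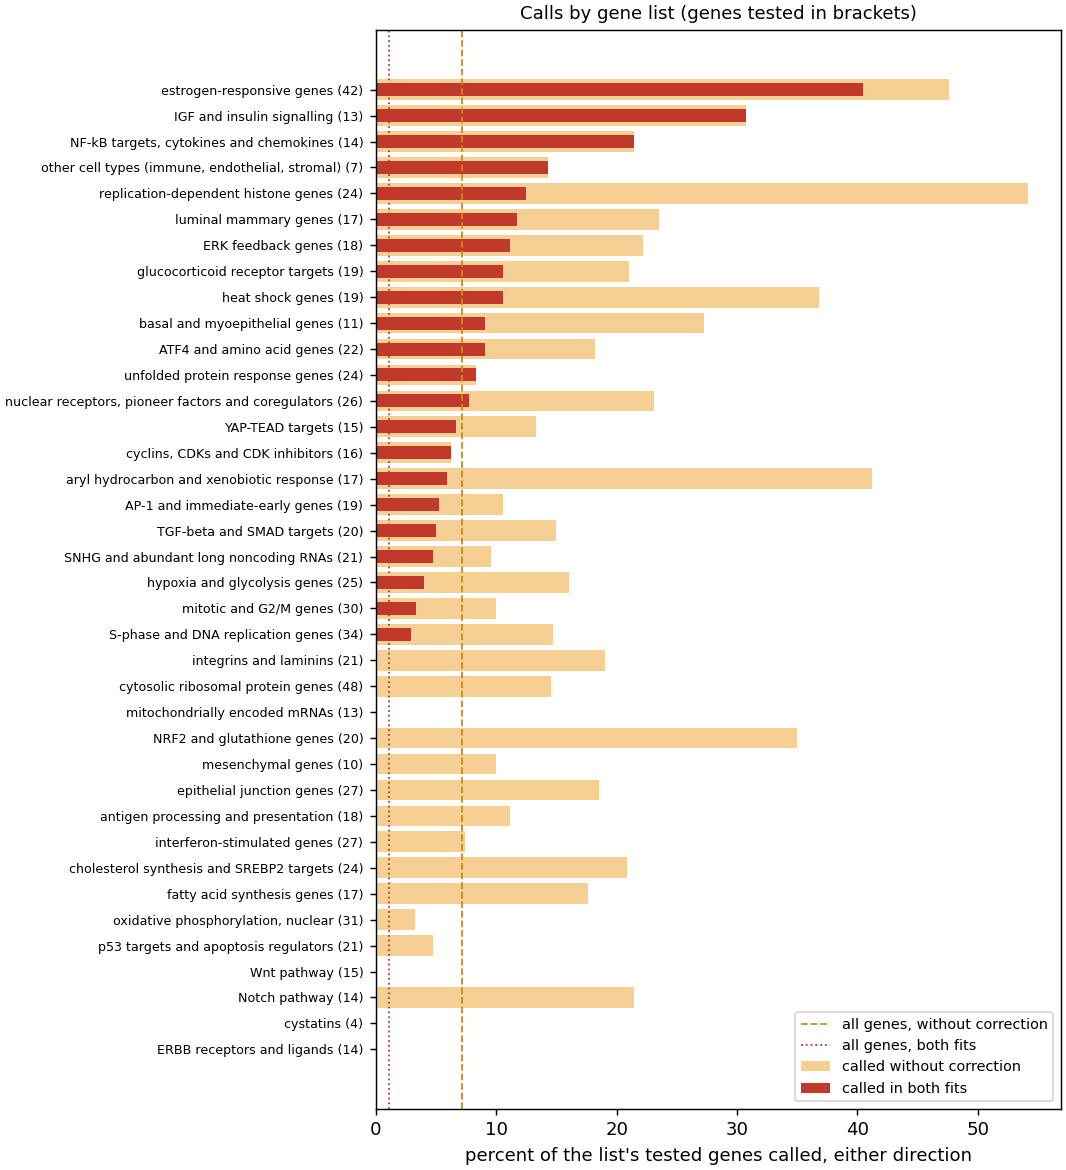
Share of each list's tested genes called in either direction, without the offsets (wide bars) and in both fits (narrow bars); dashed and dotted lines give the same shares over all genes tested, 7.12% and 1.11%. Estrogen-responsive genes stand at 47.6% and 40.5%, while replication-dependent histone genes stand at 54.2% and 12.5%.

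Leaving out single libraries separated firm held changes from weak ones. Both fits were repeated 6 times, each time without 1 LY500307 or vehicle library, and 64 of the 216 genes (52 higher and 12 lower) were called in the same direction in both fits every time. The count of held genes was 134, 91 and 126 without LY500307 replicates 1, 2 and 3, and 87, 79 and 234 without vehicle replicates 1, 2 and 3. Among the 12 largest rises in protein-coding genes averaging at least 1 log2 CPM, 9 kept the call in all 6 repeats: TFF1, GREB1, GRIK3, C5AR2, CISH, CA12, IGFBP4, A4GALT and SYTL5. PPM1J kept it in 0, TRIM31 in 2 and H3C13 in 4. Among the 12 largest falls CCNG2 and CAPN13 kept it in all 6, TNFRSF19 and MUC19 in 2 each and the other 8 in 0 to 3. In the estrogen-responsive list 11 of the 17 held genes kept it every time, the exceptions being STC2 (5 of 6), RARA (3), TFF3, CCND1 and KRT19 (1 each) and P2RY2 (0). INSR, IGFBP5, MYC, BIRC3, TNFAIP2, PFKFB3, SLC3A2, SCNN1A, HSPA1A, CCN1 and KRT15 kept it in all 6. CXCL8 kept it in 4, KDR in 3 and TGFBI in 1, while PLK1, MCM2, SYVN1, GLUL and GSTA4 kept it in 0. Of the other histone genes, H2BC9 and H2BC7 kept it in 3 each, H3C10 and H4C14 in 2 each, and H2BC5 and H3C3 in 1 each.

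Held genes were then set beside the difference between untreated add-back and knockout cells, a contrast that shares no library with LY500307 against vehicle. Whether these lines differ in more than ERβ was not tested. In that contrast 3682 genes (18.9%) were called in the same direction in both fits, 1974 higher (10.1%) and 1708 lower (8.75%). Of the 147 held rises with LY500307, 29 (19.7%) were also higher and 22 (14.97%) were lower in add-back than in knockout cells. Of the 69 held falls, 17 (24.6%) were lower and 22 (31.9%) were higher. The directions thus matched in 46 genes (21.3% of the held genes, 1.25% of the add-back calls) and differed in 44.

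In knockout and then add-back cells TFF1 was at 0.263 and 2.31 CPM, GREB1 at 3.94 and 12.98 CPM, C5AR2 at 0.220 and 1.35 CPM, IGFBP4 at 10.7 and 20.5 CPM, SYTL5 at 3.44 and 15.3 CPM and CA12 at 92.0 and 120 CPM. In control cells, with endogenous ERβ, these genes were at 0.233, 1.31, 0.0729, 9.52, 8.985 and 28.1 CPM in the same order. All 6 were called higher in add-back than in knockout cells and higher with LY500307. The other direction was seen for MAB21L4, at 153 and 86.5 CPM, for CYP2B7P, at 239 and 170 CPM, and for CISH, at 5.70 and 3.24 CPM, each of which rose with LY500307. Among the falls MUC19, OTULINL, CAPN13, DNAJB4 and KDR were higher in add-back than in knockout cells, at log2 fold changes of 1.57, 0.81, 0.55, 0.28 and 1.00, whereas TMEM45B, GLDN and CEACAM1 were lower, at −0.52, −0.70 and −0.42.

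Levels in the untreated add-back cells place the treated values. GREB1 was at 12.98 CPM in untreated add-back cells, 3.68 CPM in vehicle and 21.9 CPM with LY500307. CA12 was at 120, 44.5 and 125 CPM, IGFBP4 at 20.5, 8.26 and 21.6 CPM, TFF1 at 2.31, 0.567 and 4.04 CPM and SYTL5 at 15.3, 6.34 and 12.6 CPM in the same order. For these 5 genes vehicle was the lowest of the 3 groups. Other held rises were lowest in untreated cells: GRIK3 was at 1.18, 3.53 and 14.7 CPM and KRT15 at 17.1, 56.2 and 70.5 CPM. XBP1, at 310, 425 and 486 CPM, and CXCL8, at 2.14, 10.8 and 15.2 CPM, had that order too. IGFBP5 was lowest in vehicle, at 248, 32.3 and 42.9 CPM, and stayed far below the untreated level with LY500307. Held rises of each kind were not counted. The untreated cells differed from the vehicle cells in medium, and that comparison shares the vehicle libraries with the treatment contrast. CCNG2, a held fall, was highest in vehicle, at 30.4, 78.8 and 58.1 CPM in untreated, vehicle and LY500307 cells.

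**Figure D5:**
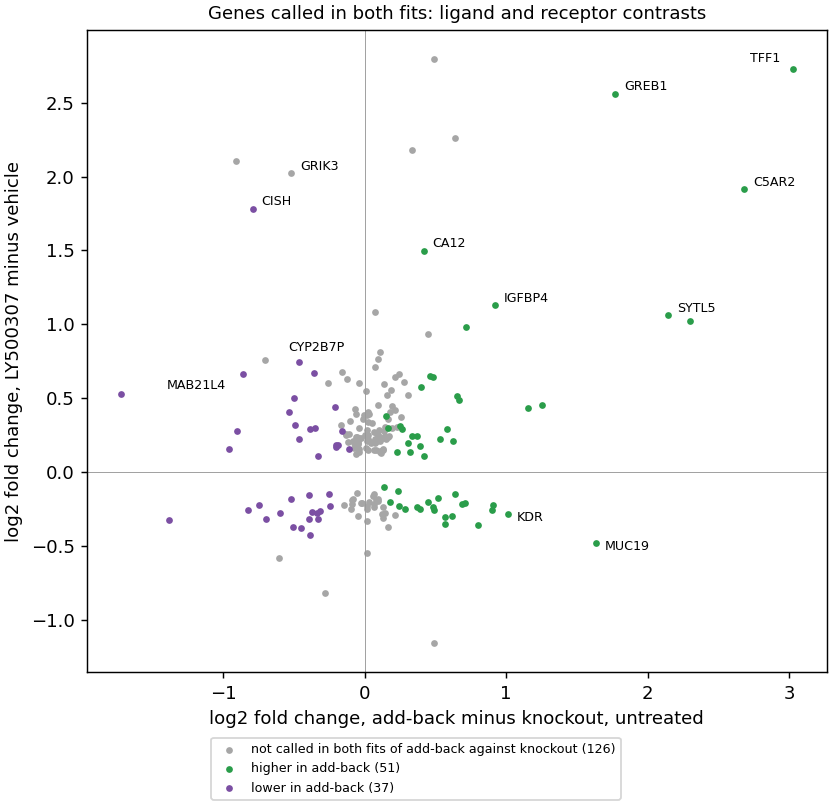
Log2 fold change with LY500307 against vehicle (vertical) and add-back against knockout (horizontal), both with GC and length offsets, for 214 held genes, coloured by the call in both fits of add-back against knockout; the other 2 held genes lie beyond the axes. TFF1, GREB1, C5AR2, SYTL5, IGFBP4 and CA12 lie in the upper right, and CISH, MAB21L4 and CYP2B7P in the upper left.

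Some held genes were neighbours on the chromosome. Neighbours here are held genes whose starts lie within 200000 bp of each other, and other tested genes can lie between them. With held genes taken in order of their starts, 13 consecutive pairs lay that close. In all 13 the direction was the same, among held genes of which 68.1% were rises. The pairs are not separate observations, since RARA and H2BC7 recur across them and some pairs are related genes. Distances are given from start to start. CA12 and LINC02568, described above, are 7975 bp apart, TFF3 and TFF1 50943 bp apart, and KRT15 and KRT19 5779 bp apart, all of them higher with LY500307. On chromosome 17 the starts of RAPGEFL1, RARA and IGFBP4 are 132182 and 134269 bp apart, and all of these genes rose. HOXB2 and HOXB3 (homeobox transcription factors), 59923 bp apart, both fell, by 0.22 on the log2 scale, and kept the call in 3 and 0 of the 6 repeats without a library. A held neighbour was found for 24 of 214 held genes with a position (11.2%) and for 6.83% of all genes tested with a position. Whether pairs share reads at their edges was not tested.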

How the data were processed

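Total RNA was depleted of ribosomal RNA and made into stranded libraries, per the labels' protocols. The submitters' processing notes name FastQC, Trim Galore, GSNAP, RSEM and GRCh38; versions, annotation release and use of strand in counting are not given in the sources used here. The authors deposited expected counts per gene and per transcript, which need not be whole, with no normalisation. All columns belonged to the 15 libraries of the series (0 columns unused).

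Expected counts of 60664 genes were rounded and filtered by group with filterByExpr, which left 19516. Normalisation was by TMM, and the quasi-likelihood test of edgeR 4.0.16 (R 4.3.3) was two-sided in a model of the means of 5 groups, with 10 residual degrees of freedom. Symbols came from a gene name table, which matched 60463 identifiers; gene positions, GC content and length came from GENCODE 29 on GRCh38, with GC content and length weighted by transcript expression, and 423 tested genes without them got no offset. For the correction, each library's log2 CPM deviations were fitted robustly on natural splines (5 degrees of freedom) of GC content and log length, and the fitted trend entered the model as an offset. The procedure was tested on simulated data. limma 3.58.1 (voom) and DESeq2 1.42.0 (Wald test) were alternatives, with other scalings, filters, blocks and left-out libraries.

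Genes were named by rule: the receptors; among protein-coding held genes without overlap between groups and averaging 1 log2 CPM or more, the 12 largest rises and falls; the 4 largest of each among calls not held and among noncoding calls; the 5 largest in each relation to add-back against knockout; and up to 3 called members of each list (8 of the estrogen list). Other names were chosen after their values were seen. The members and the 38 gene lists were chosen with earlier results of these data known.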

Additional observations from a re-analysis of the deposited data

How the results depend on the processing

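The count of 1389 called genes depended mainly on the treatment of GC content and on single libraries. It was 271 with GC and length offsets, 267 with offsets for GC content alone and 220 with offsets and a replicate block, and from 299 to 1844 when 1 library was left out: 586, 487 and 1131 without LY500307 replicates 1, 2 and 3, and 403, 299 and 1844 without vehicle replicates 1, 2 and 3. The held count of 216 ranged from 79 to 234 in the same repeats, which were chosen after the data were seen, and was 204 with splines of 3 degrees of freedom and 268 from the 6 libraries alone. Of the 216, limma-voom called 214 and DESeq2 187. The share of calls that were higher, 67.0%, moved to 76.4% with a CPM filter, 76.6% in the 6 libraries alone and 83.1% (1593 higher, 324 lower) with no filter. The genes called both with LY500307 and, in the same direction, in add-back against knockout went from 178 to 74 with offsets in both contrasts, and those called in opposite directions from 222 to 63. The number of lists with more rises than falls was 24, then 18 with the offsets and 23 with upper-quartile factors.

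Named calls that changed sign were JUND, at −0.074 with the offsets, −0.0751 with offsets and block and −0.0749 with GC content alone; NOTCH3, at −0.0238, −0.0236 and −0.0319; PKP3, at −0.031, −0.0307 and −0.0298; and, all close to 0, KRT7, at −0.00397, −0.00393 and −0.00566, ST14, at −0.00459, −0.00457 and −0.00322, and RPL8, at −0.000244 with the offsets and −0.000639 with offsets and block. ESR2 was uncalled in every alternative. Of 122 named genes, another 52 lost the call with the offsets, 65 with offsets and block and 53 with GC content alone, keeping their sign. Leaving out 1 library lost from 10 (vehicle replicate 3) to 63 (vehicle replicate 2), and the other alternatives lost from 0 to 18.

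Replicate numbers did not pair the libraries: deviations of same-numbered libraries correlated at 0.04, −0.11 and −0.14. With the number as a replicate block 1216 genes were called over 15 libraries and 992 in the 6 libraries alone; the held count was 172 with the block in both fits.

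With 3 libraries a group and 14.7 to 18.7 counts per CPM, changes in genes under about 1 CPM rest on few counts. Groups of 3 were too small for a test of outlying libraries.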

Other observations

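The following held genes were singled out after their values were seen. DIO3, the deiodinase that inactivates thyroid hormone, was at 0.58 on the log2 scale and kept the call in 0 of the 6 repeats that left out 1 library. DIO2, the deiodinase that activates it, was at −0.33 and kept it in 6, and THRB, a thyroid hormone receptor, was at −0.23 and kept it in 4. FOXO3, a forkhead transcription factor, was at 0.21, and CCNG2, FBXO32, HBP1 and PNRC1 were at −0.44, −0.31, −0.31 and −0.32. Membrane and secreted genes among the rises included, beside those named above, FLT4 (VEGF receptor 3) at 0.84, C3 (complement component 3) at 0.71, GPC1 (a glypican) at 0.62 and SDC1 (a syndecan) at 0.29. GREB1L, the paralogue of GREB1, was at 0.32. The iron exporter SLC40A1 (ferroportin) was at −0.34 and the sialyltransferases ST3GAL1 and ST6GAL1 were at −0.19 and −0.20. Of these genes FLT4, C3, FOXO3, CCNG2, DIO2, SLC40A1 and ST3GAL1 kept the call without each single library in turn.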
